A study of Caenorhabditis elegans with 7 samples.

Results

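The cytosolic heat shock genes of *C. elegans* described here are 10 named genes: the *hsp-16* genes *hsp-16.1*, *hsp-16.2*, *hsp-16.11*, *hsp-16.41*, *hsp-16.48* and *hsp-16.49*, the HSP70 genes *hsp-70* and *hsp-1*, the small heat shock gene *hsp-12.6*, and *hsf-1*. They were chosen by name, as every array probe whose sequence name or accession maps to one of these symbols. Probes were found for 8 of the 10 genes, 19 probes in all, and all 8 genes were among the 14224 genes tested, out of 19859 genes with a probe on the array. *hsp-16.11* and *hsp-16.49* had 0 probes under their own names. They are near-identical copies of *hsp-16.1* and *hsp-16.48*, so a value given for *hsp-16.1* or *hsp-16.48* may hold signal from its copy, and the copies are not told apart here. All the worms were of the wild-type strain N2, grown at 25 °C on *E. coli* OP50. The treated worms received 25 μM tomatidine, a steroidal alkaloid of unripe tomatoes, from the L4 larval stage, and the control worms received the vehicle, 1% DMSO, although the labels call them untreated. RNA of whole worms was collected on adult day 7 and measured on 7 Agilent arrays with 1 dye, 3 of tomatidine-treated and 4 of vehicle-treated worms. Each array holds RNA of many worms. The methods name 4 independent experiments. They also state that 3 preparations were used singly, or mixed in equal parts for a 4th hybridization, without naming which of the arrays it was. Only the vehicle group has 4 arrays, and an array of mixed preparations would not be independent of the others. The p values therefore measure only the spread between these arrays.

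Heat shock proteins bind unfolded or damaged proteins and keep them from clumping. In the worm, the transcription factor HSF-1 turns on their genes when proteins misfold, in heat above all, and it is needed for a normal lifespan. The small heat shock proteins of the HSP-16 family hold unfolded proteins in oligomers without using ATP, and the HSP70 proteins refold them with ATP and J-protein partners. The *hsp-16* genes and *hsp-70* are nearly silent in unstressed worms and rise steeply in heat, while *hsp-1* encodes the constitutive HSP70 that every cell uses. *hsp-12.6* belongs to a class of short small heat shock proteins and is known as a target of the insulin-pathway factor DAF-16. In the RefSeq annotation (assembly WBcel235), *hsp-16.1*, *hsp-16.48*, *hsp-16.49* and *hsp-16.11* follow each other with no other protein-coding gene between them, and *hsp-16.2* stands next to *hsp-16.41*, all on chromosome V. The genes of such a couple are known to be read in opposite directions from a shared promoter.

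No heat shock gene passed the test between tomatidine-treated and vehicle-treated worms. In limma, 0 of the 8 genes had an adjusted p under 0.05 in either direction, and 0 had an unadjusted p under 0.05. Over all genes tested the adjusted call took 0.0773% as higher and 0.0% as lower, and the unadjusted call took 0.752% as higher and 0.471% as lower. The log2 fold changes of the 8 genes lay between -0.08 and 0.23, each with an adjusted p of 0.9998 from limma. The levels of the 2 groups overlapped for all 8 genes, so 0 of 8 stood apart, against 2.08% of all genes tested (0.816% with tomatidine higher and 1.27% with tomatidine lower). The methods' own measure, a z-ratio of at least 1.5 in size, took 0 of the 8 genes and 8.97% of all genes tested. It was used here without the threshold on the false discovery rate that the methods name beside it. In whole worms, fewer cells of a type and less RNA per cell cannot be told apart.

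Levels below are log2 values on a scale where 0 is the mean of an array, and they can be compared between arrays for 1 gene but not between genes, since each probe has its own brightness. The probes that stand for 7 of the 8 genes were well above background on all 7 arrays, and that of *hsp-12.6* was so on 3 of 3 tomatidine arrays and 3 of 4 vehicle arrays. Across all probes, 57.1% to 68.5% were well above background on the tomatidine arrays and 53.0% to 69.7% on the vehicle arrays. Tomatidine replicate 1 and vehicle replicate 2 stand apart, with a negative-control signal of 237.2 and 424.4 against 75.1 to 114.4 on the other 5 arrays. These 2 arrays carry the same tag in the labels, 300. Tag 450 joins tomatidine replicate 2 with vehicle replicate 3, and tag fem joins tomatidine replicate 3 with vehicle replicate 4. Vehicle replicate 1 has no partner, and what the tags stand for is not stated. The lists for adult hermaphrodites (4 yolk protein genes and the adult collagen *col-19*) and for oocytes and eggshell averaged above 0 on every array. Their mean levels were 9.24 to 9.98 and 9.02 to 9.73 on the tomatidine arrays and 8.88 to 9.74 and 8.90 to 9.74 on the vehicle arrays. A level above 0 does not set these lists apart, since 0 is the mean of all probes, dim ones included. The mean of all genes tested was 2.31 to 2.52 on the tomatidine arrays and 2.33 to 2.55 on the vehicle arrays. The lists for body wall muscle, intestine, hypodermis, neurons and embryos also averaged above 0 on every array. The sperm list averaged -1.48 to -0.47 with tomatidine and -1.76 to -0.61 with vehicle. Its gene *spe-41* lay at 1.97 to 2.92 with tomatidine and 1.46 to 3.57 with vehicle, while its other tested genes lay below 0 on every array.

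*hsp-16.1* had levels of 4.60, 3.57 and 3.82 on tomatidine replicates 1, 2 and 3, against 3.87, 4.33, 3.71 and 3.85 on vehicle replicates 1, 2, 3 and 4. Both the highest and the lowest array were tomatidine arrays, and the vehicle arrays lay between them. The means were 3.998 ± 0.54 with tomatidine (SD, n = 3) and 3.94 ± 0.27 with vehicle (SD, n = 4), a log2 fold change of 0.06 (95% interval -0.47 to 0.58, limma adjusted p = 0.9998). Its neighbour *hsp-16.48* had levels of 4.60, 3.84 and 4.12 with tomatidine, against 3.79, 4.32, 3.66 and 4.09 with vehicle. Tomatidine replicate 1 and vehicle replicate 2 were the highest arrays here too. Its log2 fold change of 0.23 (95% interval -0.26 to 0.71) was the highest of the 8 genes and was within the spread of the arrays (limma adjusted p = 0.9998).

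*hsp-16.2*, whose promoter is a much-used reporter of stress in the worm, had the smallest spread of the 8 genes on this scale, but not with normexp and quantile normalization, in the raw median signal or without tomatidine replicate 1 and vehicle replicate 2. Its levels were 3.77, 3.51 and 3.79 with tomatidine and 3.48, 3.53, 3.47 and 3.63 with vehicle. Tomatidine replicates 1 and 3 lay above all 4 vehicle arrays, and tomatidine replicate 2 lay among them. The log2 fold change was 0.16 (95% interval -0.22 to 0.55, limma adjusted p = 0.9998), which is a fold of 1.12 with bounds of 0.859 and 1.46. *hsp-16.41* had levels of 4.67, 4.37 and 4.48 with tomatidine, against 4.06, 4.60, 3.90 and 4.68 with vehicle. Vehicle replicates 2 and 4 stood with the tomatidine arrays and vehicle replicates 1 and 3 stood below them. Its log2 fold change was 0.20 (95% interval -0.27 to 0.67, limma adjusted p = 0.9998).

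*hsp-12.6* had levels near background, at -1.21, -1.13 and -0.97 with tomatidine and -1.05, -1.62, -1.30 and -1.10 with vehicle. Vehicle replicate 2 was its lowest array on this scale and its highest with normexp and quantile normalization, and the remaining arrays overlapped. The log2 fold change was 0.17 (95% interval -0.54 to 0.88, limma adjusted p = 0.9998). With the probes limited to those well above background on all 7 arrays, another probe stood for the gene and its log2 fold change was -0.14.

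*hsp-70*, the heat-inducible HSP70, had levels of 3.91, 2.48 and 3.12 with tomatidine, against 3.04, 3.66, 2.49 and 2.96 with vehicle. Its arrays spanned 1.42 on the log2 scale, and the tomatidine arrays held both ends of that range. The means were 3.17 ± 0.71 with tomatidine (SD, n = 3) and 3.04 ± 0.48 with vehicle (SD, n = 4), and the log2 fold change was 0.13 (95% interval -0.55 to 0.81, limma adjusted p = 0.9998). *hsp-1*, the constitutive HSP70, had levels of 11.15, 10.12 and 9.98 with tomatidine and 9.71, 10.77, 10.40 and 10.05 with vehicle. Tomatidine replicate 1 was the highest and vehicle replicate 1 the lowest. On this scale the log2 fold change of 0.18 had the widest interval of the 8 genes, from -0.63 to 1.001 (limma adjusted p = 0.9998). A fold as high as 2.001 or as low as 0.646 lies within it. The spread of *hsp-1* depends on the scale. Its SD within groups was 0.54 here and 0.23 with each array shifted to its 75th percentile. It was 0.19 with normexp and quantile normalization and 0.70 in the raw median signal.

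*hsf-1* itself, the regulator of the family, had levels of 4.93, 4.84 and 4.28 with tomatidine, against 5.05, 4.80, 5.13 and 4.07 with vehicle. The 2 arrays tagged fem, tomatidine replicate 3 and vehicle replicate 4, were the lowest, and the other 5 lay between 4.80 and 5.13. Its log2 fold change was -0.08 (95% interval -0.63 to 0.47, limma adjusted p = 0.9998), the only negative value among the 8 genes. HSF-1 is known to be controlled largely after its protein is made, by release from other chaperones, trimer formation and modification, which RNA levels do not show.

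**Figure D1:**
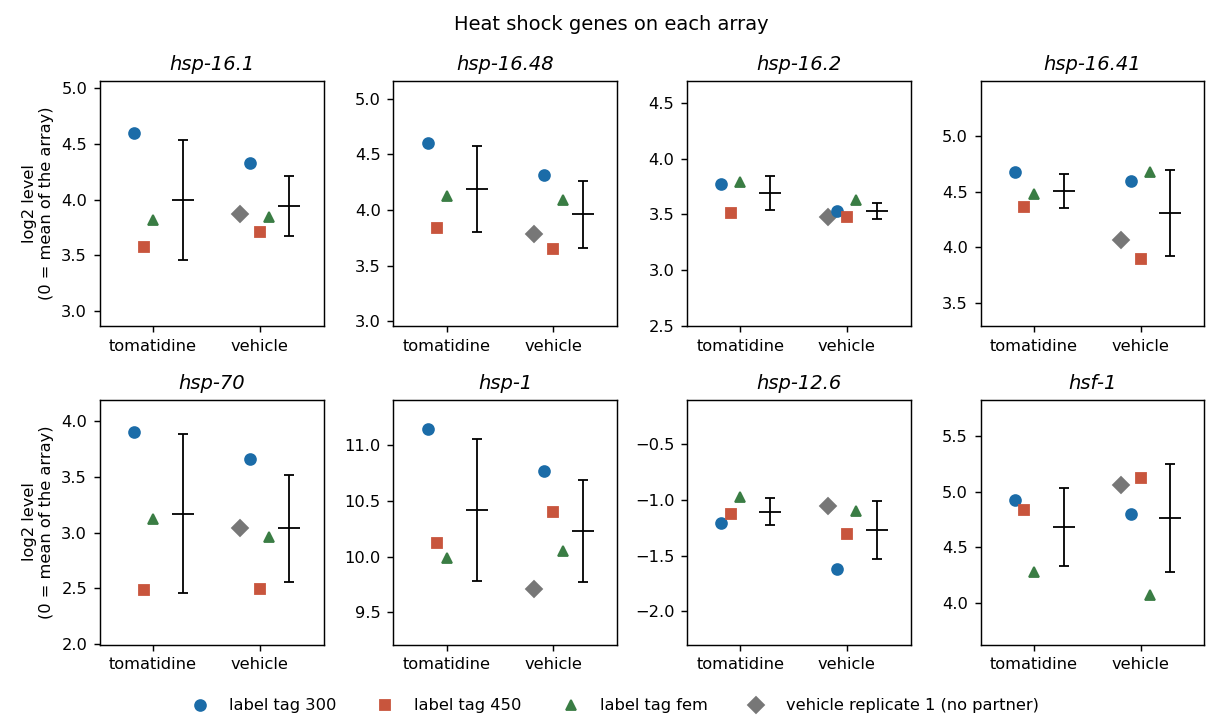
Level of the 8 heat shock genes on each array, in log2 units with 0 as the mean of an array, for 3 tomatidine arrays (left in each panel) and 4 vehicle arrays (right); the vertical axes have the same span, symbols give the label tag, and bars give the mean and SD of each group. The groups overlap in every panel. The arrays tagged 300 are the top 2 for *hsp-16.1*, *hsp-16.48*, *hsp-70* and *hsp-1*, as they are for some genes outside this part.

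The sign of the difference was positive for 7 of the 8 genes, while 45.3% of all genes tested had a positive value. This count depends, in both directions, on the processing, the block used and the arrays left out. With normexp and quantile normalization *hsp-16.1* and *hsp-70* had log2 fold changes of -0.05 and -0.04, and with the raw median signal *hsp-16.1* had -0.03. Without tomatidine replicate 1, *hsp-16.1*, *hsp-70* and *hsp-1* had log2 fold changes of -0.24, -0.24 and -0.18, none of them past the test. Without tomatidine replicate 1 and vehicle replicate 2 together, these 3 genes had -0.11, -0.03 and -0.0007. Without vehicle replicate 3, *hsp-16.1* and *hsp-70* had -0.02 and -0.05. With the replicate block by label tag, with the slide as a block, without vehicle replicate 1 or without tomatidine replicate 3, *hsf-1* was positive too. Its values were 0.016, 0.195, 0.016 and 0.12, none of them past the test, and the other genes stayed positive. The 4 *hsp-16* genes share sequence and neighbours, so they are not 4 separate measurements.

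For several of the genes the arrays fell together by label tag. *hsp-70* had the widest range of tag means. The 2 arrays tagged 300 averaged 3.79, the 2 tagged fem 3.04 and the 2 tagged 450 2.49, while tomatidine minus vehicle was 0.24 within tag 300, -0.01 within tag 450 and 0.15 within tag fem. *hsp-16.1* had means of 4.47, 3.64 and 3.83 for tags 300, 450 and fem, with differences of 0.27, -0.14 and -0.03. *hsf-1* had 4.86, 4.98 and 4.17, with differences of 0.13, -0.29 and 0.21. The range of the 3 tag means exceeded the largest of the 3 differences for 6 of the 8 genes, and the exceptions were *hsp-16.2* and *hsp-12.6*. Over all genes tested this was so for 52.6%, and in the 7 other chaperone lists described below for 26 of 47 genes. Tomatidine was above vehicle within all 3 tags for *hsp-16.2*, *hsp-16.48* and *hsp-12.6*, 3 of the 8 genes, against 11.1% of all genes tested. Those 3 differences were 0.24, 0.04 and 0.16 for *hsp-16.2*, 0.28, 0.19 and 0.03 for *hsp-16.48*, and 0.42, 0.17 and 0.13 for *hsp-12.6*.

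**Figure D2:**
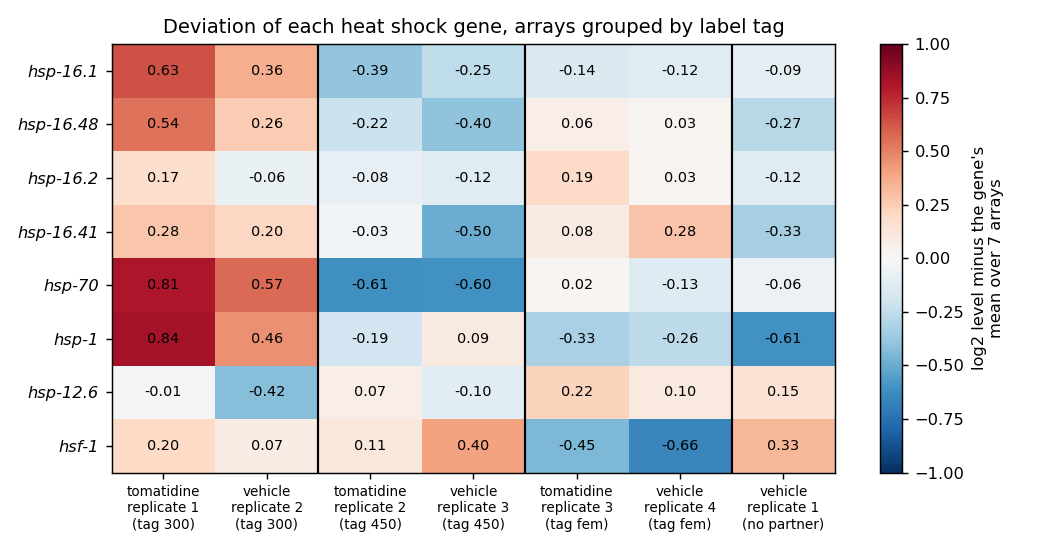
Deviation of each heat shock gene from its own mean over the 7 arrays, in log2 units (red above, blue below), with the arrays ordered by label tag and, within a tag, tomatidine before vehicle. For *hsp-70* both arrays tagged 300 lie above the mean, by 0.81 and 0.57, and both tagged 450 below it, at -0.61 and -0.60.

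The tag 300 arrays are also the 2 with the high negative-control signal, and both lie on the same slide. Their negative-control signals were 237.2 on tomatidine replicate 1 and 424.4 on vehicle replicate 2. In the same order, the processed intensities were 277401 and 352176 for *hsp-1*, and 3774 and 5704 for *hsp-16.1*. They were 3778 and 5655 for *hsp-16.48*, and 2395 and 3723 for *hsp-70*. The part of background in the high levels of these genes on these arrays was not tested. The same 2 arrays were also the highest for genes outside this part. Among the yolk protein genes tested this held for *vit-2*, *vit-4* and *vit-6* but not for *vit-5*. Among the genes of the CCT chaperonin it held for *cct-1*, *cct-2*, *cct-4*, *cct-5*, *cct-6* and *cct-7* but not for *cct-3* and *cct-8*. How often this was so over all genes was not counted. With each array shifted to its 75th percentile in place of the z-score, *hsp-70* was still highest on them, at 0.61 on tomatidine replicate 1 and 0.29 on vehicle replicate 2, against -0.83 to -0.17 on the other 5 arrays. *hsp-1* was not, as vehicle replicate 2 then had 6.86 and 4 arrays of the other 5 were above it. Tomatidine replicate 1 and vehicle replicates 1, 2 and 3 shared a slide, and tomatidine replicates 2 and 3 shared the other with vehicle replicate 4. Within the slide of tomatidine replicate 1 the difference between tomatidine and vehicle was 0.28 to 0.68 for the 4 *hsp-16* genes, 0.84 for *hsp-70* and 0.86 for *hsp-1*, each with that array as the only tomatidine array. Within the other slide it was -0.25 to 0.02 for the *hsp-16* genes, -0.16 for *hsp-70* and -0.0016 for *hsp-1*. *hsf-1* ran the other way, with -0.07 and 0.49. With the slide as a block, the log2 fold changes were 0.14 to 0.31 for the *hsp-16* genes, 0.37 for *hsp-70*, 0.45 for *hsp-1* and 0.20 for *hsf-1*, none past the test.

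The genes differed widely in how much they varied between arrays of the same group. *hsp-70* had a within-group SD of 0.59, larger than that of 95.1% of the 1000 genes nearest to it in level. *hsf-1* had 0.44 (89.8%), *hsp-1* 0.54 (88.2%) and *hsp-16.1* 0.40 (80.3%), while *hsp-16.48* and *hsp-16.41* had 0.34 and 0.31 (66.9% and 65.5%). *hsp-16.2* had 0.11 and *hsp-12.6* 0.21, larger than only 2.3% and 4.3% of genes of like level. The median within-group SD of all genes tested was 0.34, with quartiles of 0.24 and 0.48. Without tomatidine replicate 1 and vehicle replicate 2, the SD was 0.12 for *hsp-16.1*, 0.35 for *hsp-70* and 0.29 for *hsp-1*, and the places of *hsp-70* and *hsp-1* were 73.1% and 48.7%. That of *hsf-1* was 0.53 (95.2%) without them, so its spread did not rest on these arrays. The place of *hsp-1* also depended on the scale, and was 40.3% with the 75th percentile shift and 35.2% with normexp and quantile normalization, whereas that of *hsp-70* was 93.6% and 94.6%. In the raw median signal their places were the other way round, 92.2% for *hsp-1* and 74.7% for *hsp-70*. The low spread of *hsp-16.2* was not seen in the raw median signal, where its SD was 0.33 (52.5%).

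**Figure D3:**
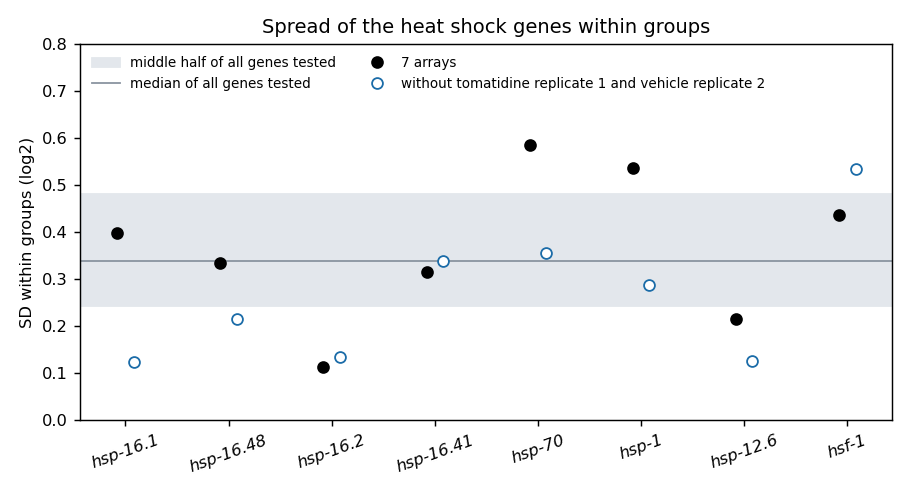
Within-group SD of each heat shock gene, in log2 units, over all 7 arrays (filled) and without tomatidine replicate 1 and vehicle replicate 2 (open). The line and band mark the median and quartiles of the 14224 genes tested over all 7 arrays, and were not redrawn for the open points. *hsp-70* and *hsp-1* lie above the band over 7 arrays and within it without the 2 arrays, while *hsp-16.2* and *hsp-12.6* lie below it in both.

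Several genes were read by more than 1 probe, which checks a gene's value within the same arrays. All 6 probes of *hsp-1* gave a positive log2 fold change, between 0.07 and 0.33, and the 2 probes of *hsp-16.41* gave 0.20 and 0.19. The 6 probes of *hsp-12.6*, each well above background on 4 to 7 arrays, split into 3 positive and 3 negative values between -0.23 and 0.25. Fitted over all probes of the array, 15 of the 19 probes were positive and 4 negative, the lowest unadjusted p was 0.351 and every adjusted p from limma was 0.9999. Probes of the same gene share the RNA, the array and part of the transcript, so they are not replicates of the treatment.

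**Figure D4:**
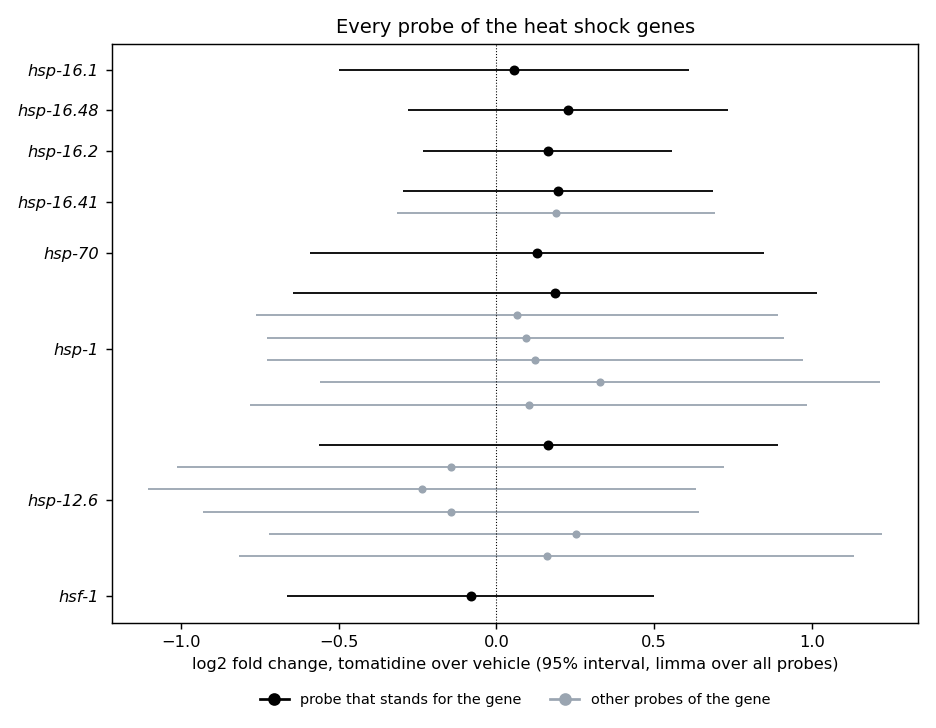
Log2 fold change of tomatidine over vehicle for each of the 19 probes of the heat shock genes, with its 95% interval from limma over all probes; black marks the probe that stands for its gene. Every interval includes 0, and the values run from -0.23 to 0.33.

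The other chaperones of the cytosol were looked at in 7 lists, of which 47 of 48 genes were tested. None passed the test in either direction, at an adjusted or an unadjusted p under 0.05 from limma, and their median log2 fold change was 0.03, with 28 values positive and 19 negative. The median was 0.16 over the 8 heat shock genes and -0.03 over all genes tested. Among 9 other small heat shock proteins the median was 0.05, and the values ran from -0.48 for *hsp-12.1* to 0.46 for *hsp-17*, with 5 positive. Apart from genes at the ends of a range or past the z-ratio, those named are the 2 of each list with the highest mean signal. *sip-1*, a small heat shock protein of oocytes and embryos, had levels of 12.56, 11.26 and 11.13 with tomatidine and 11.04, 11.53, 12.43 and 11.25 with vehicle. *hsp-25* was at 5.59, 4.80 and 4.76 with tomatidine and between 4.81 and 4.96 on all 4 vehicle arrays, so that tomatidine replicate 1 stood alone. The methods' z-ratio passed 1.5 in size for 3 of the 47 genes of the lists, against 8.97% of all genes tested. These were *hsp-17* (1.72), *hsp-12.1* (-1.79) and *hsf-2* (-2.33). Of them, *hsp-12.1* and *hsf-2* were well above background on only 1 of 3 tomatidine and 2 of 4 vehicle arrays.

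Partners of HSP70 did not pass the test either. *hsp-110*, which exchanges the nucleotide of HSP70, had levels of 5.93, 5.69 and 5.27 with tomatidine and 5.63, 6.59, 5.33 and 5.65 with vehicle (log2 fold change -0.17, SE 0.27). *F44E5.5*, another heat-inducible HSP70, had a log2 fold change of 0.06 (SE 0.19). The 5 cytosolic J proteins, which hand proteins to HSP70, had a median of 0.03, and *dnj-19* and *dnj-12* had 0.19 and -0.17. *hsp-90*, the HSP90 of the cytosol, had levels of 10.91, 10.10 and 10.01 with tomatidine and 9.68, 10.87, 10.46 and 10.12 with vehicle. Tomatidine replicate 1 and vehicle replicate 2 were again its highest arrays. The 12 genes of HSP90 and its cochaperones had a median of 0.05, and *daf-41*, the cochaperone p23, had -0.08.

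The CCT chaperonin and prefoldin, which take part in the folding of new actin and tubulin, had no gene past the test. The 8 CCT subunits had log2 fold changes between -0.08 and 0.17 with a median of 0.06, and *cct-1* and *cct-4* had -0.07 and -0.05. The 6 prefoldin subunits lay between -0.10 and 0.11 with a median of 0.03, and *pfd-1* and *pfd-5* had 0.06 and 0.11. The 4 regulators and relatives of HSF-1 had a median of -0.22, which was -0.06 without tomatidine replicate 1. *hsb-1*, whose product binds HSF-1 and holds it back, had levels of 5.09, 5.08 and 5.42 with tomatidine and 5.10, 5.43, 5.14 and 5.55 with vehicle. *ddl-1*, whose product joins that complex, had a log2 fold change of 0.12 (SE 0.21).

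**Figure D5:**
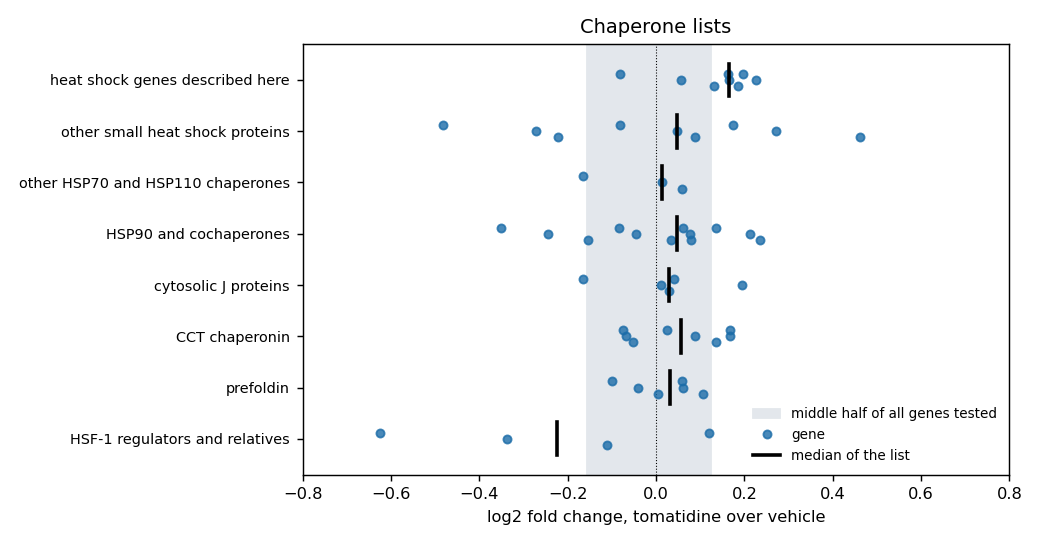
Log2 fold change of tomatidine over vehicle for each tested gene of the heat shock genes and of 7 other chaperone lists; thick bars mark list medians and the band runs between the quartiles of all genes tested, -0.16 and 0.12. The medians lie between -0.22 and 0.16, and no gene passed the test.

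Over the 7 arrays the mean level of the 4 *hsp-16* genes with a probe was 4.41, 3.82 and 4.05 on tomatidine replicates 1, 2 and 3 and 3.8003, 4.19, 3.69 and 4.06 on vehicle replicates 1, 2, 3 and 4. Tomatidine replicate 1 and vehicle replicate 2 were highest, and vehicle replicates 3 and 1 lowest. Of 14216 other genes, the 5 whose levels followed this mean most closely were *txl-1*, a thioredoxin-like gene, *clec-166*, a C-type lectin gene, the cuticle collagen genes *col-43* and *col-39*, and *fipr-23*. Pearson's r over the 7 arrays was 0.9985 for *txl-1* and down to 0.980 for *fipr-23*, a description picked as the highest of many, over arrays that share background and scale. *txl-1* had levels of 5.86, 5.45 and 5.601 with tomatidine and 5.40, 5.71, 5.34 and 5.61 with vehicle, which is the same order of the 7 arrays as that of the *hsp-16* mean. None of the 5 passed the test between the groups, and their log2 fold changes lay between 0.12 and 0.29 (limma adjusted p = 0.9998 each).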

How the data were processed

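The authors extracted each array with Agilent Feature Extraction 11.5.1.1 and deposited the processed signal, an intensity that is background-subtracted but not normalized between arrays, and median signals of spot and background, also an intensity. The authors also deposited a table of z-scores, which matched a score made from the log processed signal of each array to within 0.005. Vehicle replicate 2 was extracted without multiplicative detrending. The genome build of the array design was not given in the sources used here.

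Of 45220 spots, 1417 controls were left out, with spots marked as outliers and 86 probes marked on some array. Of 43603 probes, 34544 matched 1 gene by sequence name, accession or symbol. Each array's log2 processed signal was centred and divided by its standard deviation, then multiplied by the mean of the 7 standard deviations. Probes well above background on at least 3 arrays were kept, and a gene was represented by its kept probe of highest mean. The groups were compared in limma 3.58.1 under R 4.3.3 (lmFit, eBayes with trend, two-sided, Benjamini-Hochberg at 0.05 over 14224 genes, 5 residual degrees of freedom), which was tested on simulated data. With 7 arrays, their number limits the precision of each value. The genes described and the lists were chosen with earlier results of these data known. All 10 heat shock genes are named, with, for each other list, up to 2 genes of the highest mean signal and, in addition, the lowest and highest of the small heat shock proteins and the genes past the z-ratio threshold, chosen after their values were seen. The 5 genes most like the *hsp-16* mean are named by Pearson correlation.

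Deviations from the group means, correlated over genes, gave r of 0.61, 0.19 and 0.51 for arrays that share a label tag, where tags 300 and fem also share a slide but tag 450 does not, and -0.53, -0.45 and -0.33 for arrays that share a title number. Every tag pair exceeded 0.1, so the tags were taken to pair the arrays, but this value does not separate tag pairs from the rest. It was also 0.35 between the unpaired vehicle replicate 1 and each of tomatidine replicates 2 and 3, more than the 0.19 of tag 450. For tomatidine replicate 1 and vehicle replicate 3, which share only a slide, r was 0.12. The main fit used no pairing, and the block by label tag was among the alternatives. The 21 alternatives changed the normalization, background correction, source of values, test, filter, outlier spots, choice of probe, pairing block, slide block and arrays used, and the files hold no mean signal, so the median signal was used with normexp at an offset of 50.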

Additional observations from a re-analysis of the deposited data

How the results depend on the processing

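Under 21 alternatives the 8 heat shock genes gave 168 log2 fold changes, of which 151 kept their direction, 17 turned and 0 passed the test; the lowest adjusted p from limma or the methods' test was 0.988. With normexp and quantile normalization *hsp-16.1* and *hsp-70* had -0.052 and -0.037, with the raw median signal *hsp-16.1* had -0.034, and with a filter on all 7 arrays *hsp-12.6* had -0.14. With the replicate block by label tag *hsf-1* had 0.016, and with the slide as a block 0.20; the pairing by tag changed no call for a heat shock gene. Leaving out each array in turn gave -0.24 to 0.27 for *hsp-16.1*, -0.24 to 0.47 for *hsp-70*, -0.18 to 0.40 for *hsp-1* and -0.31 to 0.12 for *hsf-1*. Without vehicle replicate 2 and tomatidine replicate 1 together, *hsp-16.1*, *hsp-70* and *hsp-1* had -0.11, -0.03 and -0.0007.

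Of the 147 medians of the other chaperone lists, 4 moved by more than the spread between arrays: small heat shock proteins to -0.29 with the slide as a block and -0.13 without vehicle replicate 3, J proteins to -0.18 without tomatidine replicate 2, and HSF-1 regulators to -0.06 without tomatidine replicate 1. Over all genes, 11 were higher and 0 lower. The higher count was 7 with the raw median signal, 6 in limma without trend, 0 under the methods' test, 5 with a filter on all 7 arrays, 23 with the replicate block by label tag, 28 with that by title number, and 7 to 11 without each array in turn, and 1 gene was lower with the block by title number and 1 without vehicle replicate 2 and tomatidine replicate 1 together. The causes were not tested.

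The scalings moved the median of all genes by less than 0.1. With 3 and 4 arrays the intervals of the heat shock genes together span folds from 0.644 to 2.001, and changes within a gene's own interval were not detectable here. The intervals differ by gene, with 0.859 to 1.46 for *hsp-16.2* and 0.646 to 2.001 for *hsp-1*, whose spread depends on the scale. The signal of *hsp-12.6* lies near background, which limits its value.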
